A study of Mus musculus with 4 samples.

Results

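The 26S proteasome is built from 20S and 19S particles, and its genes were examined in MDSCs exposed to EGCG. The rule took every row of the count table whose gene name was 1 of 43 listed symbols, which are the constitutive 20S and 19S subunits, the proteasome activators, the inhibitor and the assembly chaperones. All 43 were found among the 53465 genes of the table, and all 43 had enough counts to be tested. MDSCs are immature myeloid cells that suppress T cells and accumulate in tumor-bearing hosts. They were sorted with Gr-1 beads from the spleens of BALB/c mice carrying 4T1 tumors, a transplantable mammary carcinoma line of the same strain. The study's methods give male mice 6 weeks old and sorting after 2 weeks of tumor growth, whereas the labels give day 21. The control group was kept in control medium for 6 h. The EGCG treatment group was given EGCG (epigallocatechin-3-gallate, a green tea catechin) at 5 μg/mL for the same time, and each group had 2 libraries. Whether these came from separate mice or separate wells is not given in the sources used here, so the p-values measure the spread between these samples, which may be technical.

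The proteasome degrades proteins that carry chains of ubiquitin. Its 20S core is a stack of alpha rings and beta rings with the cutting sites inside, and the 19S regulatory particle recognises, unfolds and feeds the substrate into the core. EGCG is known as an inhibitor of the proteasome, and cells whose proteasomes are blocked by an inhibitor typically raise the transcripts of most subunits together, through the transcription factor NRF1 (gene Nfe2l1). The question put to the counts was therefore whether 6 h of EGCG was accompanied by higher levels of the proteasome genes.

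No proteasome gene passed the test. At an adjusted p under 0.05 (edgeR quasi-likelihood test, Benjamini-Hochberg method over 14682 genes) 0 of 43 were called, against 0.150% of all tested genes in either direction and 0.0136% called higher with EGCG. Adjusted p values of the 43 genes ran from 0.23 to 0.991. DESeq2 also called 0, but it gave no adjusted p for genes including Psmg1, Psmg2 and Psmg3, which could not be called there. The log2 fold changes, EGCG against control, lay between -0.13 for Psma5 and 0.36 for Psmg3, with a median of 0.07 beside 0.0031 over all tested genes. Of the 43 genes, 31 had a log2 fold change above 0 and 12 below it, where 50.6% of all tested genes lay above 0. At an unadjusted p under 0.05, 5 genes were higher with EGCG (Psma2, Psma7, Psmb3, Psmd5 and Psmd10) and 0 were lower, against 5.22% of all tested genes higher and 7.02% lower.

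The unadjusted intervals, which measure only the spread between these libraries, bounded most of the differences gene by gene. For 41 of 43 proteasome genes the upper end of the 95% interval of the fold change lay below 1.5-fold, which held for 78.7% of all tested genes, and the exceptions were the chaperones of low count Psmg1 and Psmg3. The proteasome genes were well covered, with 70 to 3315 counts per gene and library, a median level of 67.2 CPM (counts relative to library size, the field's standard unit, here with TMM factors) against 14.2 CPM for all tested genes, and a median standard error of 0.085 against 0.13 on the log2 scale. The library totals ranged from 17767318 counts for control replicate 1 to 18390385 counts for EGCG replicate 1. With 2 libraries against 2, an exact permutation test of a single gene cannot give a two-sided p below 0.333.

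**Figure D1:**
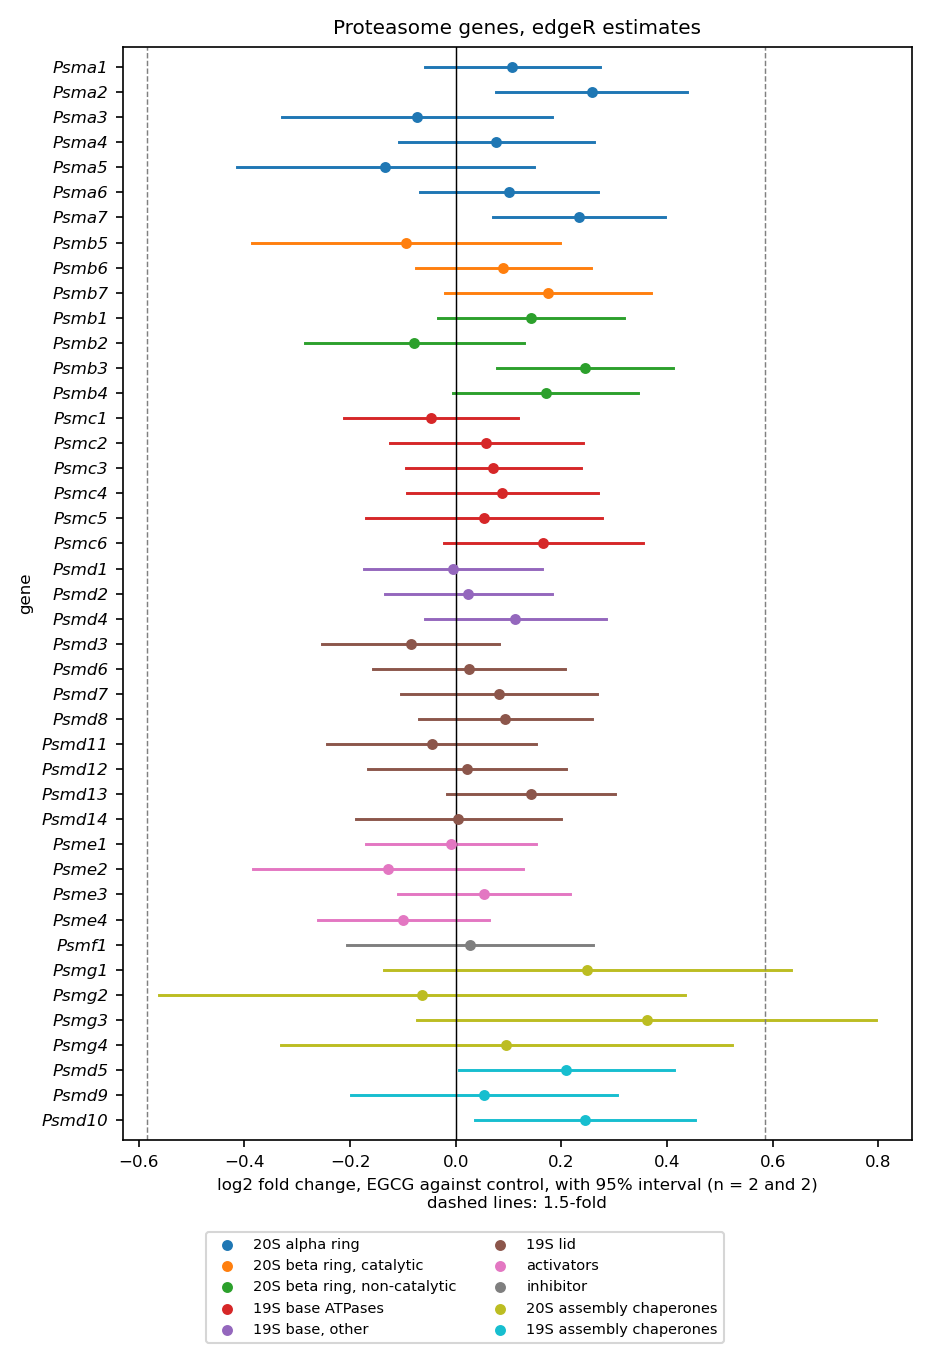
Log2 fold change of each of the 43 proteasome genes, EGCG against control (points), with its 95% interval from edgeR (lines, 2 libraries per group), coloured by role. Most points lie just right of 0, only Psma2, Psma7, Psmb3, Psmd5 and Psmd10 have intervals wholly above 0 without adjustment, and only Psmg1 and Psmg3 reach past the dashed line at 1.5-fold.

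Proteasome expression also differed between libraries of the same group. Summed over the 43 genes, the level was 2738 and 2916 CPM in control replicates 1 and 2, and 2956 and 3031 CPM in EGCG replicates 1 and 2. The mean of the control group was 2827 ± 125 CPM (SD, n = 2), and that of the EGCG treatment group was 2994 ± 52.5 CPM (SD, n = 2). Control replicate 1 was the lowest. At these scaled levels the gap between the control libraries was larger than the gap from control replicate 2 to either EGCG library. As a share of all counts, without TMM factors, the 43 genes held 0.2814% and 0.2899% in control replicates 1 and 2. With EGCG the shares were 0.2915% and 0.2992%. On that scale the gap from control replicate 2 to EGCG replicate 2 exceeded the gap between the control libraries.

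The same order was seen gene by gene. Control replicate 1 was the lowest of the 4 libraries for 28 of 43 proteasome genes, whereas it was the lowest for 29.3% of all tested genes. Control replicate 2 was higher than control replicate 1 for 33 of 43 genes, against 49.7% of all tested genes, with a median log2 difference of 0.08. This was close to the median difference between the groups. EGCG replicate 2 was the highest library for 23 of 43 genes, against 26.6% of all tested genes. For 22 genes both EGCG libraries lay above both control libraries and for 2 genes (Psmd3 and Psme4) both lay below, and the remaining 19 overlapped; over all tested genes 21.5% lay above and 21.2% below without overlap.

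When control replicate 1 was left out, 0 proteasome genes were higher at an unadjusted p under 0.05 and 2 were lower (Psma5 and Psme2), and the median log2 fold change was 0.04; over all tested genes 2.59% were higher and 3.93% lower in that fit. When control replicate 2 was left out instead, 9 genes were higher, against 6.78% of all tested genes, and the median was 0.09. The lone control library was assumed in these fits to vary like the other libraries, and no adjusted p fell under 0.05 (edgeR, Benjamini-Hochberg), the smallest being 0.0542 for Psma2 without control replicate 2. Without EGCG replicate 1 the median was 0.10, and without EGCG replicate 2 it was 0.04.

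**Figure D2:**
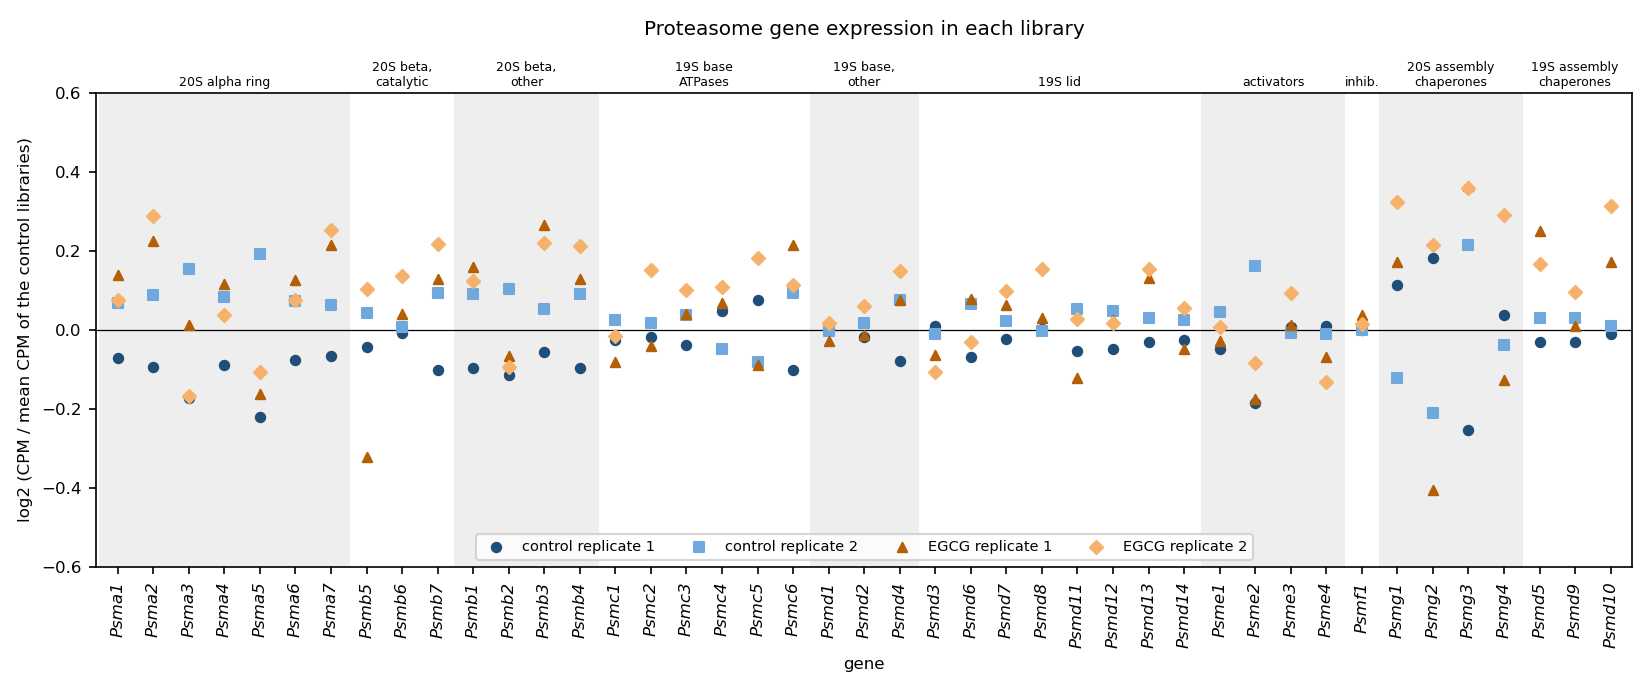
Level of each proteasome gene in each of the 4 libraries, as the log2 ratio of its CPM to the mean CPM of the control libraries, with the genes ordered by role. Control replicate 1 is the lowest point for 28 of the 43 genes, and most points of all libraries lie within 0.3 log2 units of the control mean.

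Cell type markers were set beside this order. The 8 neutrophil markers (S100a8, S100a9, Ly6g, Csf3r, Cxcr2, Mmp8, Mmp9 and Retnlg), which mark granulocytic cells, were all tested, and their summed level was also lowest in control replicate 1. It was 50206 and 60820 CPM in the controls and 69730 and 60247 CPM with EGCG, with 6 of 8 genes higher and 0 called. The sums of B cell markers (1707 to 1958 CPM, 4 of 5 higher), T cell markers (90.0 to 108 CPM, 4 of 6 higher) and erythroid markers (142 to 191 CPM, 3 of 4 tested higher) were lowest in control replicate 1 as well. Other lists were lower with EGCG in most of their genes. All 4 endothelial markers were lower at an unadjusted p under 0.05, against 7.02% of all tested genes, with a median log2 fold change of -0.81 and sums of 114 and 126 CPM in the controls and 93.9 and 98.6 CPM with EGCG. All 6 macrophage markers were lower (median -0.25, sums of 270.1 to 341 CPM), as were 4 of 5 monocyte markers (median -0.14, 903 to 987 CPM), 4 of 4 platelet markers (median -0.08, 32.0 to 39.3 CPM) and 3 of 4 eosinophil or basophil markers (median -0.14, 813 to 1102 CPM). At the same unadjusted threshold 2 macrophage, 2 eosinophil or basophil, 1 monocyte and 1 platelet marker were lower, and 1 marker each of the neutrophil, B cell, erythroid, eosinophil or basophil, and epithelial or tumour lists was higher, against 5.22% of all tested genes. Epithelial or tumour markers summed to 3.86 to 6.61 CPM, with Krt8 and Krt14 too low to be tested and the other two higher, and 0 genes of any list were called. The part of cell composition in the proteasome values was not tested, and in such bulk libraries fewer cells of a type and less RNA per cell cannot be told apart.

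In the 20S core, 10 of the 14 subunits had a log2 fold change above 0, where 50.6% of all tested genes did. Their median was 0.10 and 0 were called, against 0.150% of all tested genes. The median was 0.05 when control replicate 1 was left out and 0.18 when control replicate 2 was. Summed over the 14, the level was 1057 and 1178 CPM in the controls and 1225 and 1235 CPM with EGCG. For 9 subunits both EGCG libraries lay above both control libraries, and for 0 did both lie below, where 21.5% and 21.2% of all tested genes did.

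The alpha subunits form the outer rings and the gate of the core. Psma7 (chr2:180036374-180042433 in GRCm38, as are all positions here), the most abundant subunit per length, was at 137 and 150 CPM in the controls and at 166 and 171 CPM with EGCG, so that the groups did not overlap. Its log2 fold change was 0.23 ± 0.08 (SE, n = 2 and 2; unadjusted p = 0.00839, adjusted p = 0.24, edgeR with Benjamini-Hochberg adjustment). Psma2 (chr13:14613240-14674236) was at 66.4 and 75.2 CPM in the controls and at 82.7 and 86.5 CPM with EGCG. The groups were again separate, and its log2 fold change of 0.26 ± 0.08 had the 95% interval from 0.08 to 0.44 (edgeR, adjusted p = 0.241).

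Psma5 was the lowest of all 43 genes in log2 fold change and was an example of the spread within a group. It was at 18.8 CPM in control replicate 1 and at 25.1 CPM in control replicate 2, and the EGCG libraries at 19.6 and 20.4 CPM lay between them. Its log2 fold change was -0.13 ± 0.13 (SE), and its sign turned when control replicate 2 was left out. Psma3 had the same pattern, with 25.1 and 31.5 CPM in the control group and 28.5 and 25.2 CPM with EGCG. The other alpha subunits Psma1, Psma4 and Psma6 had log2 fold changes between 0.08 and 0.11. Over the 7 alpha subunits the median was 0.10, with 5 above 0. This median was 0.03 with 4 above 0 when control replicate 1 was left out, and 0.18 with 7 above 0 when control replicate 2 was.

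The beta subunits Psmb5, Psmb6 and Psmb7 carry the chymotrypsin-like, caspase-like and trypsin-like cutting sites. Psmb5 (chr14:54614119-54618022), which holds the site that most proteasome inhibitors block, was at 18.5 and 19.6 CPM in the controls and at 15.2 and 20.4 CPM with EGCG. The EGCG libraries lay on both sides of the control libraries. Its log2 fold change was -0.09 ± 0.14 (SE), with a 95% interval from -0.39 to 0.20 (edgeR, adjusted p = 0.837).

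Psmb6 (chr11:70525367-70527858) was at 84.6 and 85.6 CPM in the controls and at 87.6 and 93.6 CPM with EGCG. These values did not overlap, and the log2 fold change was 0.09 ± 0.08 (SE), with a 95% interval from -0.08 to 0.26 (edgeR, adjusted p = 0.688). This fold change was 0.04 when EGCG replicate 2 was left out and 0.14 when EGCG replicate 1 was. Psmb7 (chr2:38588036-38644087) was at 48.3 and 55.2 CPM in the controls and at 56.6 and 60.2 CPM with EGCG. Its lowest EGCG value was just above its highest control value, and the log2 fold change of 0.18 ± 0.09 (SE) had an interval from -0.02 to 0.37 (edgeR, adjusted p = 0.47). The fold change was 0.09 when control replicate 1 was left out and 0.28 when control replicate 2 was. Of its exonic bases, 11.8% overlap Nek6. The catalytic subunits therefore had intervals that all include 0 and that all end below 1.5-fold.

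Among the beta subunits without a cutting site, Psmb3 (chr11:97703399-97713500) was at 80.8 and 87.1 CPM in the controls and at 101 and 97.9 CPM with EGCG. The groups were separate, and its log2 fold change was 0.24 ± 0.08 (SE), with the smallest unadjusted p of the 43 genes (edgeR, 0.00724, adjusted p = 0.23). Psmb2, which was at 39.4 and 45.8 CPM in the controls and at 40.7 and 39.9 CPM with EGCG, had a log2 fold change of -0.08 ± 0.10 (SE). Psmb1 and Psmb4 lay between these, at 0.14 and 0.17. The median of these 4 beta subunits was 0.16, or 0.07 without control replicate 1 and 0.26 without control replicate 2.

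Several 20S values depend on how reads were shared among near-identical genes. Of the 31-base words in the transcripts of Psmb5, 71.7% also occur in other genes, and 59.7% occur in Gm3375, annotated as a processed pseudogene. More counts were assigned to Gm3375 (32.6 and 30.5 CPM in the control group, 33.5 and 37.1 CPM with EGCG) than to Psmb5 itself. Added together, the pair had a log2 fold change of 0.07 ± 0.09 (SE), with an interval from -0.13 to 0.27, so that the sign for Psmb5 is uncertain. Psma5 shares 46.2% of its words with Gm8394 and Psma3 shares 16.2% with Gm13835, and the sums gave -0.02 and 0.09 in place of -0.13 and -0.07. Psma4, Psmc1, Psmd2 and Psme2 had a close copy as well, and with the copies added 33 of 43 genes were above 0 and 0 were called. Psmb3 shares 21.7% of its words with other genes, 16.8% with the pseudogene AC114990.1. That pseudogene was not among the counted genes, so no sum could be formed, and the level of Psmb3 is uncertain too. Psma2, Psma7, Psmd5 and Psmd10 share between 0 and 8.48%. How the authors treated reads that map to several places is not given in the sources used here.

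In the 19S particle, 13 of the 17 subunits were above 0 with a median log2 fold change of 0.05, where 50.6% of all tested genes were above 0. Of the 17, 0 had an unadjusted p under 0.05 (edgeR), against 5.22% of all tested genes higher and 7.02% lower. The median was 0.03 without EGCG replicate 2 and 0.10 without EGCG replicate 1. For 7 subunits both EGCG libraries lay above both control libraries and for 1 both lay below, against 21.5% and 21.2% of all tested genes. The summed level was 1245 and 1288 CPM in the controls and 1287 and 1339 CPM with EGCG, and here control replicate 2 and EGCG replicate 1 were alike.

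The ATPases Psmc1 to Psmc6 form the ring that unfolds substrates. Psmc6 was at 61.8 and 70.7 CPM in the controls and at 76.8 and 71.7 CPM with EGCG, with the highest log2 fold change of the ring over all 4 libraries (0.17 ± 0.09, SE). It was 0.08 when control replicate 1 was left out and 0.27 when control replicate 2 was. Psmc1, the lowest, was at 84.3 and 87.5 CPM in the controls and at 81.2 and 85.0 CPM with EGCG, a log2 fold change of -0.05 ± 0.08 (SE). The other ATPases lay between 0.05 and 0.09.

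Psmd1 and Psmd2 are the large scaffold subunits of the base, and Psmd4 is a receptor for ubiquitin chains. Psmd4 was at 99.1 and 110.4 CPM in the controls and at 110.4 and 116 CPM with EGCG, with a log2 fold change of 0.11 ± 0.08 (SE), which was 0.04 when control replicate 1 was left out and 0.19 when control replicate 2 was. Psmd1 was nearly level over all libraries, at 68.8 and 68.7 CPM in the controls and at 67.5 and 69.6 CPM with EGCG (log2 fold change -0.0049 ± 0.08, SE), and Psmd2 had a log2 fold change of 0.02.

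The lid holds the deubiquitinase Psmd14 and its scaffold subunits. Its 8 log2 fold changes lay between -0.09 and 0.14 with a median of 0.02. Psmd13 was at 103 and 107 CPM in the controls and at 115 and 117 CPM with EGCG (log2 fold change 0.14 ± 0.07, SE; edgeR, adjusted p = 0.469), although 10.1% of its exonic bases overlap another gene, Sirt3. Psmd3 was at 73.4 and 72.4 CPM in the controls and at 69.7 and 67.7 CPM with EGCG, separate in the other direction (log2 fold change -0.09 ± 0.08, SE). Psmd14, the catalytic subunit of the lid, had a log2 fold change of 0.0046 ± 0.09 (SE).

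The activators open the gate of the 20S core without the 19S particle. Psme1 and Psme2 form PA28αβ, which interferon induces. Psme1 was at 111 and 118 CPM in the controls and at 112 and 115 CPM with EGCG. Psme2 was at 23.9 and 30.4 CPM in the controls and at 24.1 and 25.6 CPM with EGCG. In both genes the EGCG libraries lay between the control libraries, and the log2 fold changes were -0.0093 ± 0.08 and -0.13 ± 0.12 (SE). Psme2 shares 33.5% of its 31-base words with Psme2b, to which more counts were assigned (1605 to 1914 per library, against 437 to 544 for Psme2), and their sum had a log2 fold change of -0.12 ± 0.09 (SE).

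Psme3 encodes the nuclear activator PA28γ. It was at 93.9 and 92.8 CPM in the controls and at 94.3 and 99.7 CPM with EGCG, a log2 fold change of 0.05 ± 0.08 (SE), which was 0.015 when EGCG replicate 2 was left out and 0.10 when EGCG replicate 1 was. Psme4, which encodes the activator PA200, was at 94.1 and 92.7 CPM in the controls and at 89.1 and 85.3 CPM with EGCG. It was one of the genes with both EGCG libraries below both control libraries, and its log2 fold change was -0.10 ± 0.08 (SE; edgeR, adjusted p = 0.647), or -0.0049 with a correction for gene length. Psmf1, the inhibitor PI31, was at 18.6 CPM in both control libraries and at 19.1 and 18.8 CPM with EGCG.

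The assembly chaperones had a higher median than the 20S subunits, the 19S subunits and the activators, except without control replicate 2, where the 20S subunits were higher (0.18 against 0.14). Of 7 chaperones, 6 had a log2 fold change above 0 with a median of 0.21, where 50.6% of all tested genes lay above 0. The test called 0 of them, against 0.150% of all tested genes. At an unadjusted p under 0.05 (edgeR) 2 were higher, against 5.22% of all tested genes. Psmd5 and Psmd10, also named S5b and gankyrin, help to assemble the 19S base and leave the finished particle. Psmd10 (chrX:140948429-140956728) was at 29.1 and 29.4 CPM in the controls and at 33.0 and 36.4 CPM with EGCG. Psmd5 (chr2:34849734-34874968) was at 30.0 and 31.3 CPM in the controls and at 36.5 and 34.4 CPM with EGCG. In both genes the gap between the groups was larger than the gap within either group, though only narrowly for Psmd10. Their log2 fold changes were 0.25 ± 0.10 (SE; unadjusted p = 0.0241, edgeR adjusted p = 0.338) and 0.21 ± 0.09 (SE; unadjusted p = 0.0434, edgeR adjusted p = 0.398). Psmd9, the remaining chaperone of the base, had a log2 fold change of 0.05 ± 0.12 (SE), and 25.5% of its exonic bases overlap Gm26745.

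Psmg1 to Psmg4 encode PAC1 to PAC4, the chaperones that build the alpha ring. Their levels in the control group were between 4.83 and 9.32 CPM per kilobase of transcript. Psmg3 was at 3.89 and 5.37 CPM in the controls and at 5.96 and 5.94 CPM with EGCG, and its log2 fold change of 0.36 ± 0.20 (SE), the highest of all 43, had an interval from -0.07 to 0.80. It was 0.15 without control replicate 1, below Psmg1 at 0.38 and Psmd10 at 0.24 in that fit, and 0.61 without control replicate 2, while 9.68% of its exonic bases overlap Gm26938. Psmg1 was at 6.19 and 5.26 CPM in the controls and at 6.45 and 7.17 CPM with EGCG, a log2 fold change of 0.25 ± 0.18 (SE). Psmg2 was at 5.81 and 4.42 CPM in the controls and at 3.86 and 5.94 CPM with EGCG. Here the EGCG libraries were the lowest and the highest of the 4, and at this depth a difference of the size seen in Psmd10 was not detectable in this gene.

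Transcript levels per length differed far more among the proteasome genes than between the groups. In CPM per kilobase of the principal transcript, the 20S subunits had a median of 54.8 in the controls and 59.1 with EGCG, and they ranged in the control group from 9.93 for Psma3 to 157 for Psma7. The 19S subunits had a median of 37.3 in the control group and 39.6 with EGCG, and the assembly chaperones one of 5.95 and 6.73. Psma3, Psma5 and Psmb5, at low levels, have a close copy, but so does Psma4, which was at 55.7 in the controls. Psma2, which has no such copy, was at 24.3 in the controls. The principal transcripts used have 2911 bases for Psma2 and 2846 bases for Psma3, against 1165 bases for Psma4. In CPM not divided by length, Psma2 was at 70.8, Psma4 at 64.9 and Psma3 at 28.3 in the controls. The parts of read sharing and of the transcript length used in these levels were not tested.

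**Figure D3:**
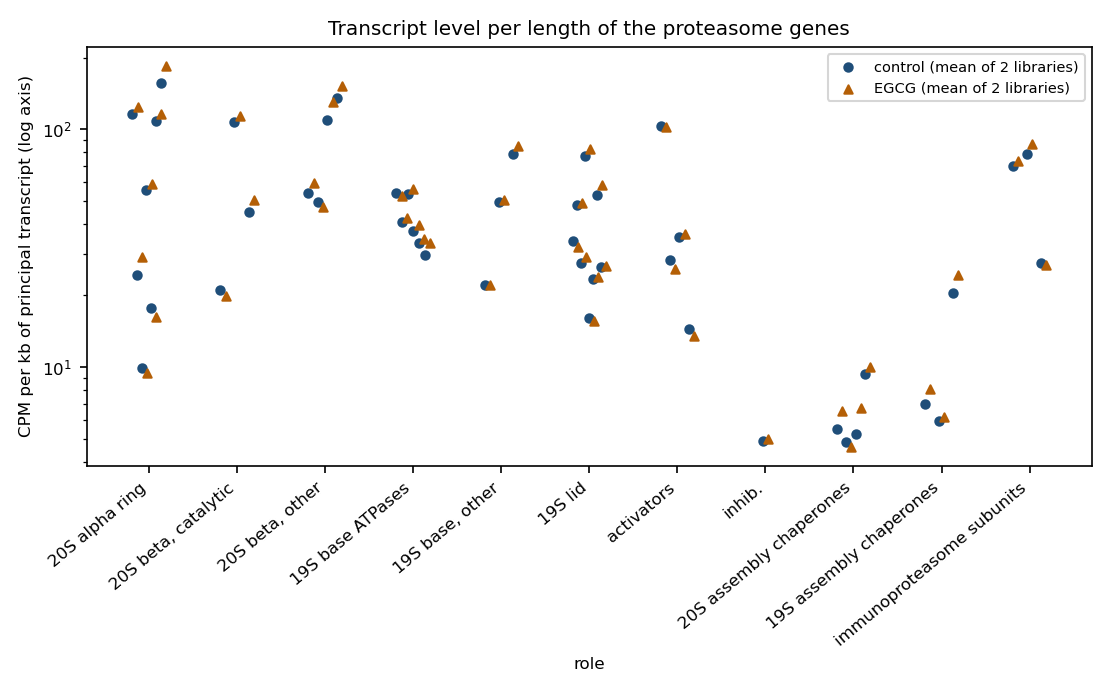
Level of each proteasome gene and of the 3 immunoproteasome subunits in CPM per kilobase of principal transcript (log axis), as the mean of the 2 control libraries (circles) and of the 2 EGCG libraries (triangles), by role. The subunits lie between about 9 and 184 CPM per kilobase, most assembly chaperones lie below 10, and the circle and triangle of a gene are close together.

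The immunoproteasome subunits Psmb8, Psmb9 and Psmb10 replace Psmb5, Psmb6 and Psmb7 in immune cells and are not among the 43 genes. Psmb8 was at 104 and 124 CPM in the controls and at 119.3 and 119.6 CPM with EGCG, and Psmb9 was at 99.2 and 114 CPM in the controls and at 113 and 121 CPM with EGCG. Psmb10 was at 36.0 and 35.9 CPM in the controls and at 33.4 and 36.7 CPM with EGCG. All overlapped between the groups, with log2 fold changes of 0.07 ± 0.09, 0.13 ± 0.08 and -0.04 ± 0.09 (SE). That of Psmb9 was 0.04 when control replicate 1 was left out and 0.24 when control replicate 2 was. Per kilobase, the level of Psmb8 over that of Psmb5 was 3.10 and 3.51 in the controls and 4.33 and 3.23 with EGCG, a ratio that rests on the uncertain level of Psmb5. The level of Psmb9 over that of Psmb6 was 0.693 and 0.788 in the control group and 0.759 and 0.765 with EGCG, and that of Psmb10 over Psmb7 was 0.660 and 0.575 in the control group and 0.522 and 0.539 with EGCG.

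The genes around the proteasome were examined as 34 further genes, of which 32 were tested and 0 were called. Nfe2l1, which encodes NRF1, was at 149 and 151 CPM in the controls and at 148 and 151 CPM with EGCG. The groups overlapped, and its log2 fold change was -0.0092 ± 0.07 (SE), with an interval from -0.16 to 0.15. Ddi2, the protease that cuts NRF1 into its active form, was at 77.9 and 69.5 CPM in the controls and at 62.2 and 62.0 CPM with EGCG, a log2 fold change of -0.25 ± 0.08 (SE; unadjusted p = 0.0107, edgeR adjusted p = 0.263). It was -0.14 with a correction for gene length and -0.16 without control replicate 1. A share of 18.3% of its exonic bases overlaps Rsc1a1. Pomp, the chaperone that completes the 20S core, was at 80.5 and 91.6 CPM in the controls and at 83.7 and 90.4 CPM with EGCG, a log2 fold change of 0.02 ± 0.09 (SE).

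Of the ubiquitin genes, Ubb was at 1152 and 1191 CPM in the controls and at 1350.0 and 1439 CPM with EGCG. The groups did not overlap, and the log2 fold change was 0.25 ± 0.08 (SE; unadjusted p = 0.00642, edgeR adjusted p = 0.228). Of the 31-base words of Ubb, 50.3% occur in other genes, so its level is uncertain. Of 10 genes of proteotoxic stress, 5 were above 0 and 5 below. Bag3, a co-chaperone that heat shock factor induces, was at 11.4 and 10.9 CPM in the controls and at 9.16 and 8.23 CPM with EGCG (log2 fold change -0.36 ± 0.14, SE; edgeR adjusted p = 0.341). Hmox1, the heme oxygenase induced by oxidative stress, was at 346 and 334 CPM in the controls and at 264 and 328 CPM with EGCG (log2 fold change -0.20 ± 0.09, SE; edgeR adjusted p = 0.405). The value of Hmox1 rests on EGCG replicate 1: it was -0.36 without EGCG replicate 2 and -0.05 without EGCG replicate 1. Among the 32 tested genes 1 was thus higher and 3 lower at an unadjusted p under 0.05, against 5.22% and 7.02% of all tested genes.

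**Figure D4:**
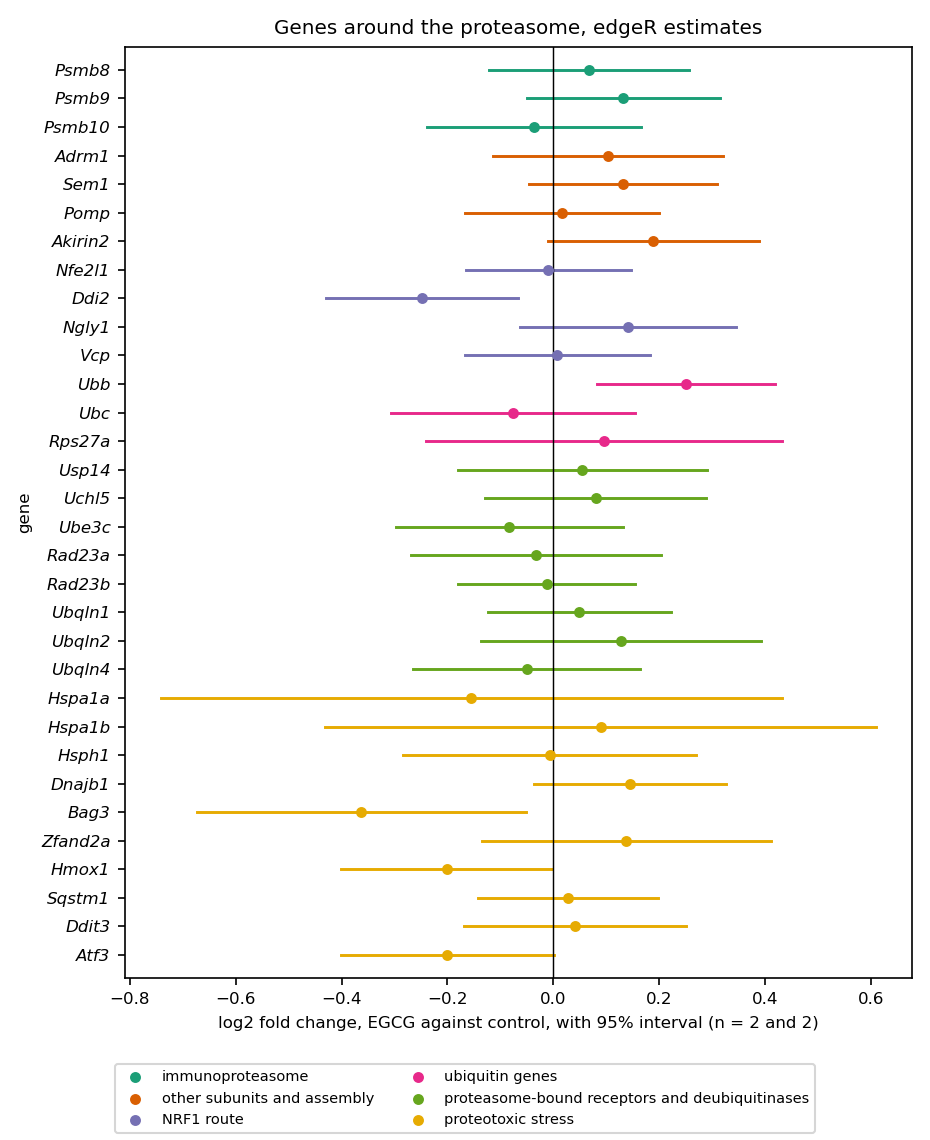
Log2 fold change, EGCG against control, of the 32 tested genes around the proteasome (points) with the 95% interval from edgeR (lines, 2 libraries per group), coloured by list. Nfe2l1 lies near 0, Ubb has an interval above 0 and Ddi2, Bag3 and Hmox1 have intervals below 0 before adjustment, and no gene passed the adjusted threshold.

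The promoters of the proteasome genes were read for the letters to which NRF1 and the CCAAT-binding factor NF-Y are known to bind, because these factors act on many subunit genes at once. RefSeq promoters (GRCm38.p6, 250 bases before to 50 after the start) were at hand for 36 of the 43 genes. The core of the antioxidant response element, searched as TGACNNNGC on both strands, was found at 6 of these 36 genes (16.7%), against 12.4% of 32851 promoters. The first share is per gene, as the 36 genes had 39 promoters, and the second is per promoter. The windows that precede the transcribed bases of the catalytic subunits Psmb5 and Psmb6 and of the ATPase Psmc6 are shown 5′ to 3′ on the strand of the gene, with the match in capitals. They are shown because NRF1 is known to act through these letters. Psmb5 is at chr14:54618023-54618067 on the minus strand, Psmb6 at chr11:70525323-70525356 on the plus strand and Psmc6 at chr14:45329574-45329630 on the plus strand, where the match is on the opposite strand.
Psmb5: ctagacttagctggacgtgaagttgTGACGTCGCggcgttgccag
Psmb6: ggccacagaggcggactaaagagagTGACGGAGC
Psmc6: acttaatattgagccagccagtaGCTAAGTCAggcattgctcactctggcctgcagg

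The proteasome genes with the core had a median log2 fold change of 0.04, and the 30 without it one of 0.08. The log2 fold changes of those with the core ran from -0.10 for Psme4 to 0.17 for Psmc6, with 4 of 6 above 0. A match is a description of the letters and not a sign of binding.

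The CCAAT box was searched as CCAAT on both strands and was found at 12 of the 36 genes (33.3%), again a share per gene, against 37.4% of all promoters. The genes with the box had a median log2 fold change of 0.10 and 10 of 12 lay above 0, whereas the genes without it had a median of 0.05 and 17 of 24 lay above 0. Of the 5 genes with an unadjusted p under 0.05, Psma2, Psma7, Psmb3 and Psmd10 held the box and Psmd5 held neither motif. These 5 genes were picked by p from the same data, so the share among them is no test of the box. The windows of those that held the box are shown because they belong to the proteasome genes with the smallest p values, again 5′ to 3′ with the match in capitals. Psma2 is at chr13:14613163-14613217 on the plus strand, Psma7 at chr2:180042631-180042685 on the minus strand, Psmb3 at chr11:97703324-97703378 on the plus strand and Psmd10 at chrX:140956729-140956783 on the minus strand, where the match is on the opposite strand and a further match, nearer the start, is left in lower case.
Psma2: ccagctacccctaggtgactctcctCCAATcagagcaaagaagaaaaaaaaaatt
Psma7: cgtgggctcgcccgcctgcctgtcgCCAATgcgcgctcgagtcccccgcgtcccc
Psmb3: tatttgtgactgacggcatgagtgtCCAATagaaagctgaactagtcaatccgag
Psmd10: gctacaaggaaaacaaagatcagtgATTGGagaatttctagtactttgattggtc

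The small positive median of the proteasome genes was kept in sign under every processing alternative, while its distance from all tested genes was not constant. Not every alternative could move it much: the robust and newer edgeR fits, which alter the variance estimates, returned the 0.07132 of the fit as reported. With library size as the only scaling, the median of the 43 genes was 0.04 beside -0.03 over all tested genes, and 26 of 43 were above 0, where 42.5% of all tested genes were. With a correction for gene length, the median was 0.07 beside 0.03, and 33 of 43 were above 0, where 57.2% of all tested genes were. The proteasome genes are shorter than the rest, with a median exonic length of 2808 bases against 3814.5 bases. The activators were the only role with a median below 0 (-0.05, 3 of 4 genes below 0), and this median turned to 0.04 without control replicate 2. The medians of the lid and of the base subunits other than ATPases both turned to -0.01 with library size only, and so did that of the lid without control replicate 1 (-0.02) and that of the base subunits without EGCG replicate 2 (-0.01).

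**Figure D5:**
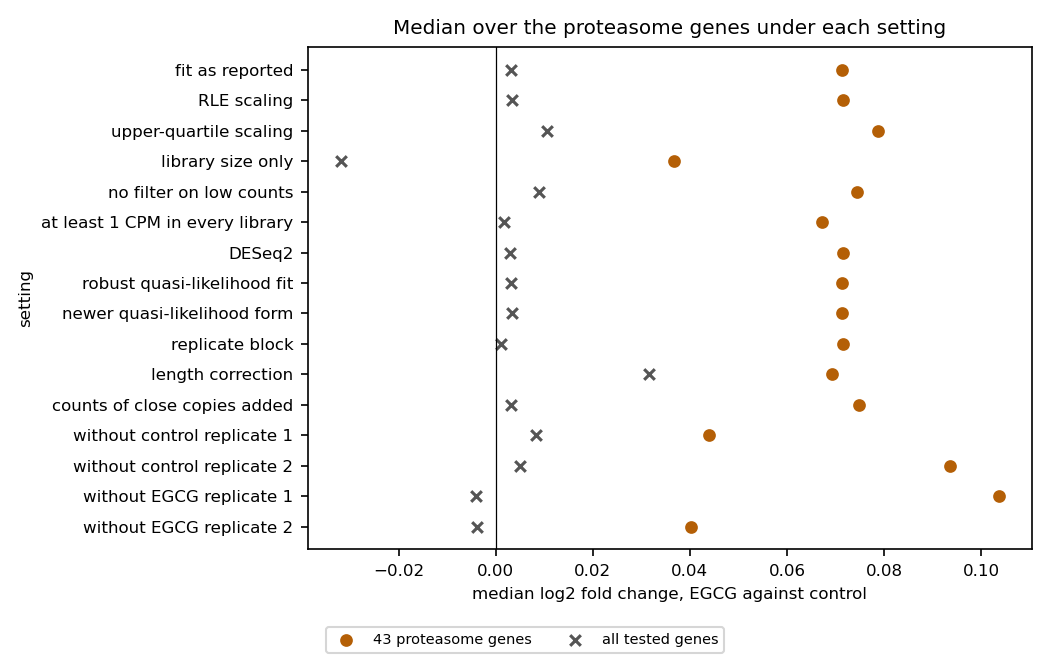
Median log2 fold change of the 43 proteasome genes (circles) and of all tested genes (crosses) under the fit as reported and each alternative. The median of the proteasome genes lies between 0.04 and 0.10 in every setting, lowest with library size only and highest without EGCG replicate 1, and the median of all tested genes stays within 0.04 of 0.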

How the data were processed

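RNA of Gr-1-sorted MDSCs was sequenced in 2 control and 2 EGCG libraries. Per the labels and the study's methods, the authors used STAR 2.6.0c for alignment to GRCm38 and featureCounts 1.6.2 for counting on Ensembl release 91 genes, ignoring strand. They deposited whole-number counts without normalization. There were 0 columns of other samples and 0 rows without a name.

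From these counts, genes were filtered with filterByExpr (minimum count of 10), scaled by TMM and compared in edgeR 4.0.16 (quasi-likelihood test, legacy form, no block), with Benjamini-Hochberg adjustment over 14682 tested genes and a threshold of 0.05. A standard error is the log2 fold change divided by the square root of F, and 95% intervals use the moderated degrees of freedom. The test was checked on simulated counts. Replicates differed by more than sampling noise (mean chi-square per gene 6.85 between the control libraries and 6.64 between the EGCG libraries, and 3.16 and 2.83 over the proteasome genes). Positions, lengths and shared 31-base words came from GENCODE M21 (GRCm38). Per-length levels use the principal transcript.

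The members and lists were chosen with earlier results of these data known. Named genes are the catalytic subunits, activators and inhibitor, the 5 highest and 5 lowest in log2 fold change, those with an unadjusted p under 0.05, and the extremes of each role. Of the related genes, they are Psmb8, Psmb9, Psmb10, Pomp, Nfe2l1 and those with an unadjusted p under 0.05. A further gene was left out of these lists and is not reported here. Alternatives were other scalings and filters, DESeq2 1.42.0, robust and newer edgeR fits, a replicate block, a length correction (loess, span 0.4) and leaving out each library. Adding the counts of close copies (the counted pseudogene or protein-coding gene, not overlapping, that holds most of a gene's shared words, at least 10%), and the count of genes at an unadjusted p, were chosen after seeing the data. Scripts ran in Python 3.11.15 (pandas 2.3.3, NumPy 2.4.6, matplotlib 3.10.9) and R 4.3.3.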

Additional observations from a re-analysis of the deposited data

How the results depend on the processing

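Across 11 alternatives, 0 proteasome genes were called, the median log2 fold change lay between 0.04 and 0.08 and between 26 and 33 of 43 genes were above 0. The genes higher at an unadjusted p under 0.05 numbered 3 with library size only and 3 with DESeq2, in place of 5, while the share of all tested genes was 3.21% and 2.59%, in place of 5.22%. Leaving out each library in turn moved this number from 0 to 9 (all tested genes from 2.59% to 6.78%), the median from 0.04 to 0.10 and the genes above 0 from 27 to 36, with 0 called throughout. Calls over all tested genes numbered 151 with library size only, 0 without the filter (where 2.83% were higher at an unadjusted p under 0.05) and 64 with DESeq2, in place of 22. They numbered 63 with the robust fit, 31 with the newer edgeR fit, 30 with the block, 5 with the length correction and 11 with the upper quartile or the stricter filter.

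Signs turned in 12 of the genes named by the rule above. Psma3, outside that rule, turned to 0.092 with its close copy added. Psmd1 had a log2 fold change of 0.0023 when scaled by the upper quartile and 0.074 after length correction, and Nfe2l1 had 0.034 after the latter. Pomp had -0.017 and Psmf1 -0.0084 with library size only, and Psmb5 had 0.072 with the close copy added. Without single libraries the log2 fold change lay between -0.32 and 0.089 for Psma5, between -0.32 and 0.11 for Psmb5, between -0.18 and 0.036 for Psmb2, between -0.29 and 0.058 for Psme2, between -0.051 and 0.041 for Psme1, between -0.40 and 0.22 for Psmg2 and between -0.026 and 0.020 for Psmd1. It lay between -0.024 and 0.0094 for Nfe2l1, between -0.069 and 0.11 for Pomp, between -0.054 and 0.21 for Psmb8 and between -0.10 and 0.031 for Psmb10. With the sign kept, it lay between -0.079 and -0.012 for Psmc1, between 0.011 and 0.099 for Psmd9, between 0.017 and 0.040 for Psmf1 and between 0.14 and 0.38 for Psmg1. The cause was not tested.

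The replicate numbers are shared by the groups, but nothing says that they mark the same animals, and deviations of same-numbered libraries were correlated at 0.034 over 14682 genes. With the replicate block the median was 0.07, 31 genes were above 0 and 0 were called. The depth limits Psmg1 to Psmg4 most, whose standard errors reach 0.23.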
